A study of Drosophila melanogaster with 12 samples.

Results

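The Turandot genes and the genes of the JAK/STAT pathway were followed through larval fat bodies of Drosophila melanogaster, by 9 names: the secreted stress factors TotA, TotB, TotC, TotM and TotX, the ligand upd3, the receptor dome, the transcription factor Stat92E and the inhibitor Socs36E. A gene was taken where the deposited table has a row with its name and the name is unique without regard to case. This found 6 of the 9 among 9367 genes, and TotM, TotX and upd3 have no row and are not analysed here. The table has a value above 0 for every gene in every library, so genes that lacked reads in some library could not be tested.

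The RNA came from fat bodies of female larvae in the third instar, at the wandering stage, with 3 libraries in each of 4 groups. High-sugar svp RNAi and high-sugar control larvae ate food with 0.7 M sucrose, and control-diet svp RNAi and control-diet control larvae ate food with 0.15 M sucrose. All of them carried UAS-Dcr2 (X) and r4-GAL4, a driver active in fat body, from their mothers; the fathers were of the VDRC 100762 UAS-Svpi stock for the svp RNAi groups and of the VDRC 60100 control stock for the control groups. Svpi stands for an RNAi hairpin against svp, which encodes seven-up, a nuclear receptor related to vertebrate COUP-TF factors. Each RNAi group rests on 1 hairpin stock. Whether replicate libraries derive from different pools of larvae is not given in the labels. The p-values therefore describe the scatter of these samples alone, which could be technical.

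In the JAK/STAT pathway, secreted ligands of the Unpaired family bind the receptor Domeless, the kinase Hopscotch phosphorylates Stat92E, and Stat92E enters the nucleus and activates target genes, Socs36E among them, whose product damps the signal. The fat body is the main source of the Turandot proteins, small secreted factors that accumulate in the hemolymph after heat, infection, injury and other stress. In adult flies TotA expression has been reported to need JAK/STAT signalling and also the NF-κB factor Relish of the Imd pathway and the stress kinase Mekk1, so Turandot genes can report on more than 1 pathway.

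Libraries held 4382035 to 6555884 reads over the genes tested, recovered from the deposited normalized abundance. That unit is a read number adjusted to a common library size within each diet, with no division by gene length. The RNAi target svp was itself higher in the libraries labelled svp RNAi than in control, by 1.46 ± 0.16 on high sugar and 1.78 ± 0.16 on the control diet (log2 fold change ± SE, limma, adjusted p = 2.18e-05 and 6.8e-06), so a lower level of the target, which its label would lead to, was not seen. Reads of the hairpin that were counted as svp cannot be told apart here from reads of the endogenous transcript. Directions between genotypes below compare svp RNAi, as labelled, with control. The table holds all 10 fat body markers, among them the larval serum proteins, and their summed scaled reads ran from 1202367 to 1410418 in high-sugar svp RNAi and from 1578671 to 1693358 in high-sugar control, and from 1090424 to 1497921 in control-diet svp RNAi and from 1828285 to 1987442 in control-diet control. Scaled reads are recovered reads divided by 1 factor per library found over all 12 libraries together.

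Among the Turandot genes, TotA was the one with the highest level. Its normalized abundance was 188900, 100760 and 102440 in the 3 libraries labelled svp RNAi on high sugar, against 7454, 9366 and 12074 in high-sugar control. On the control diet it was 79081, 62951 and 78496 in the libraries labelled svp RNAi, against 5884, 6625 and 6344 in control. All 6 libraries labelled svp RNAi lay above all 6 control libraries, whichever the diet. The log2 fold change was 3.73 ± 0.25 on high sugar (13.2-fold, limma, adjusted p = 5.58e-07) and 3.54 ± 0.25 on the control diet (11.6-fold, adjusted p = 1.13e-06). The call held in every alternative tried on either diet, including each library left out in turn.

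The rise made TotA one of the most read genes of the tissue. It took 3.28%, 1.93% and 1.83% of the reads of the high-sugar svp RNAi libraries, where it ranked 3rd, 4th and 5th among 9367 genes, against 0.128%, 0.172% and 0.207% in high-sugar control, where its rank was 82, 43 and 33. Its share on the control diet was 1.43%, 1.35% and 1.60% in svp RNAi, against 0.108%, 0.111% and 0.0978% in control. In bulk tissue, a change in the number of cells that express a gene and a change in the RNA of each such cell cannot be told apart.

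TotB, a close relative of TotA, lay far below it. Its normalized abundance was 485, 498 and 295 in high-sugar svp RNAi, against 20.6, 47.9 and 48.2 in high-sugar control, 2 ranges that do not overlap. With control food it was 124, 206 and 103 in svp RNAi, against 5.54, 102 and 14.0 in control. There control replicate 2, with 93 recovered reads of TotB, came within 1 unit of the lowest library labelled svp RNAi, while the other controls had 7 and 8 reads. TotB rose 11.2-fold on high sugar (log2 3.48 ± 0.70, limma, adjusted p = 0.00379) and 6.43-fold on the control diet (log2 2.68 ± 0.70, adjusted p = 0.0269).

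TotC, a neighbour of TotA on the same strand, was the gene with the smallest fold change of the 3 that rose. Its normalized abundance was 1208, 633 and 821 in high-sugar svp RNAi, against 233, 427 and 317 in high-sugar control, with no overlap. It was 492, 315 and 220 in control-diet svp RNAi, against 56.8, 222 and 79.0 in control-diet control, where control replicate 2 lay just above the lowest library labelled svp RNAi. The log2 fold change was 1.43 ± 0.42 on high sugar (2.70-fold, limma, adjusted p = 0.0353) and 1.69 ± 0.42 on the control diet (3.23-fold, adjusted p = 0.0203).

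The calls of TotB and TotC on the control diet each ended when control-diet control replicate 1 or 3, or control-diet svp RNAi replicate 1 or 2, was left out (highest adjusted p of 0.106 and 0.101), and that of TotB also in a fit of the 2 control-diet groups alone (adjusted p = 0.0732). On high sugar the call of TotC ended without high-sugar control replicate 1 or 3, or high-sugar svp RNAi replicate 1 or 3 (adjusted p up to 0.131), and that of TotB held in every alternative.

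Victoria, now named TotE, is the remaining Turandot gene with a row and did not follow the others. Its normalized abundance was 245, 885 and 101 in high-sugar svp RNAi, against 182, 282 and 469 in high-sugar control. Values were 523, 125 and 195 in control-diet svp RNAi, against 75.8, 1771 and 63.6 in control-diet control. The groups overlapped on both diets, and the spread between libraries of 1 group exceeded any difference between groups. The log2 difference was -0.04 on high sugar (95% confidence interval -2.25 to 2.17) and 0.19 on the control diet (-2.02 to 2.40), so changes of several-fold in either direction would not have been detectable.

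**Figure D1:**
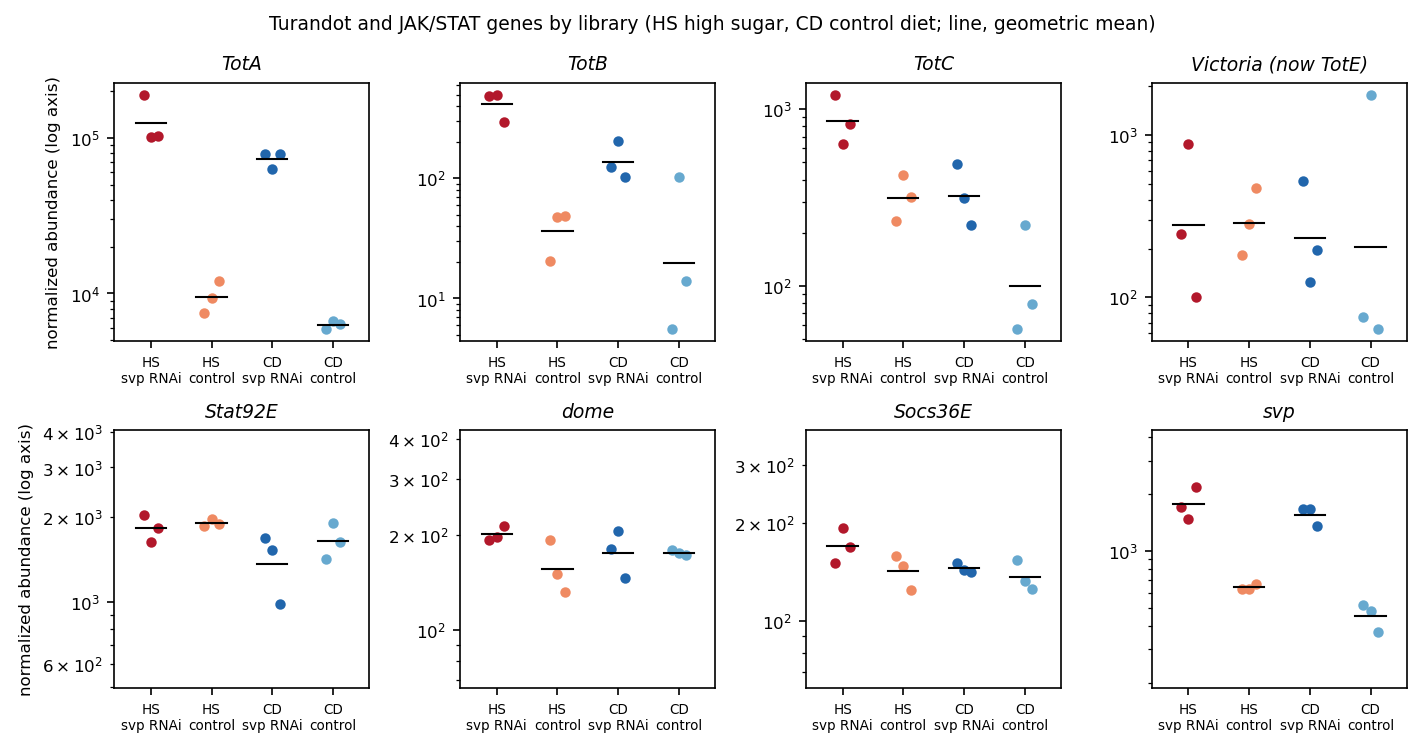
Normalized abundance of the 4 measured Turandot genes, of Stat92E, dome and Socs36E, and of the RNAi target svp in each of the 12 libraries, on log axes whose range differs between panels. Points are libraries of high-sugar (HS) or control-diet (CD) larvae and lines are geometric means; TotA in every library labelled svp RNAi, from 62951 to 188900, lies above every control library, while Stat92E, dome and Socs36E overlap between genotypes.

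Control-diet control replicate 2 stood apart for the Turandot genes. Set against the higher of the other 2 control-diet control libraries, its scaled reads were 23.1 times as many for Victoria, 8.28 times for TotB and 2.91 times for TotC, which ranked 2nd, 4th and 10th of 9367 genes by this ratio, and 1.06 times for TotA. Without this library the fold changes on the control diet were larger, at 3.81 on the log2 scale for TotB (limma, adjusted p = 0.000129) and 2.26 for TotC (adjusted p = 0.000927), and that of TotA was 3.58 (adjusted p = 1.66e-05). The library was singled out by its own high TotB and TotC values. Larger fold changes and smaller p-values of these genes without it follow from that choice and are no separate support.

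Within single libraries, the 3 Turandot genes that rose did not keep 1 proportion. Per 1000 reads of TotA there were 6.39, 6.27 and 8.02 reads of TotC in high-sugar svp RNAi, against 31.2, 45.5 and 26.3 in high-sugar control. There were 6.23, 5.01 and 2.82 in control-diet svp RNAi, against 9.76, 33.6 and 12.1 in control-diet control. The ratio was lower in every library labelled svp RNAi than in every control library. The mean log2 difference over the 2 diets was -2.06, with p = 0.005 in an exact two-sided permutation of genotype within diet (400 arrangements, the smallest p they allow, adjusted p = 0.015 over 3 pairs of genes). The ratio was chosen after these values were seen and restates the fold changes of TotA and TotC above. Its p-value is therefore no separate support.

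TotB relative to TotA did not separate the genotypes. Per 1000 reads of TotA there were 2.57, 4.94 and 2.89 reads of TotB in high-sugar svp RNAi, against 2.72, 5.11 and 3.998 in high-sugar control. The counts were 1.57, 3.26 and 1.31 in control-diet svp RNAi, against 1.05, 15.6 and 1.87 in control-diet control, where the high value is that of replicate 2. The mean log2 difference was -0.46 (same test, exact permutation p = 0.58). TotB relative to TotC was higher in the libraries labelled svp RNAi by 1.60 on the log2 scale (exact permutation p = 0.01, adjusted p = 0.015). These 3 ratios were chosen after their values were seen, and that of TotB to TotC follows from the others. TotA, TotC and TotB are neighbours on the same strand of chromosome arm 3R and encode related proteins, and whether reads of the abundant TotA were counted as TotB or TotC was not tested.

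**Figure D2:**
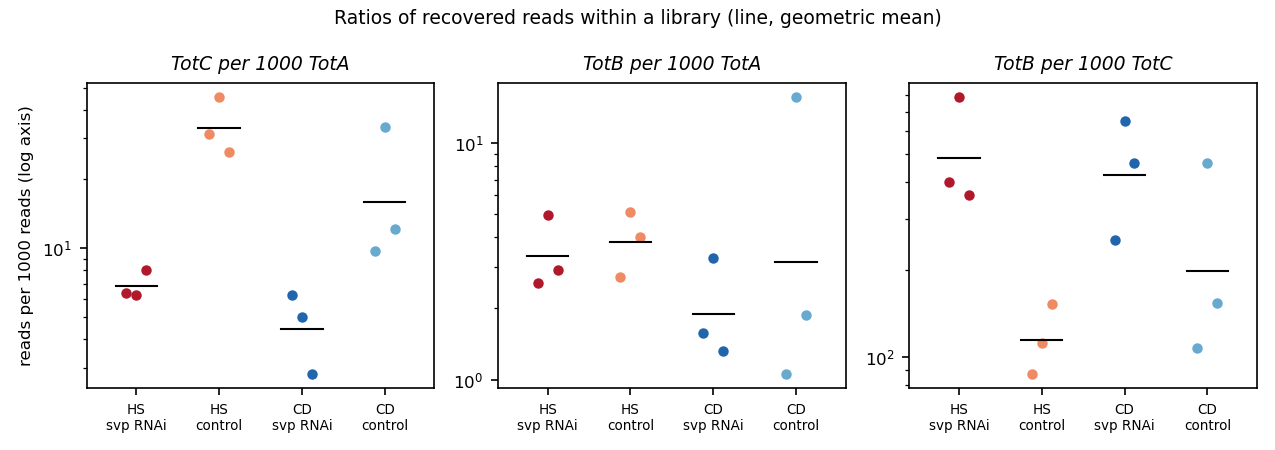
Recovered reads of TotC and TotB per 1000 reads of TotA, and of TotB per 1000 reads of TotC, in each library, on log axes; lines are geometric means. TotC per 1000 TotA runs from 2.82 to 8.02 in the libraries labelled svp RNAi and from 9.76 to 45.5 in control, while TotB per 1000 TotA overlaps between genotypes.

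Stat92E, dome and Socs36E gave no call between genotypes. Stat92E, the STAT transcription factor, had a normalized abundance of 2034, 1635 and 1831 in high-sugar svp RNAi, against 1854, 1965 and 1893 in high-sugar control. It was 1685, 1530 and 986 in control-diet svp RNAi, against 1420, 1903 and 1637 in control-diet control. The ranges overlapped on both diets. The log2 difference was -0.06 on high sugar (95% confidence interval -0.44 to 0.32, limma, adjusted p = 0.871) and -0.27 on the control diet (-0.64 to 0.11, adjusted p = 0.422).

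The receptor gene dome had 192, 197 and 213 in high-sugar svp RNAi, against 192, 150 and 132 in high-sugar control, ranges that met at their edges. It had 180, 205 and 147 in control-diet svp RNAi, against 179, 175 and 172 in control-diet control. The log2 difference was 0.36 ± 0.16 on high sugar (95% confidence interval 0.03 to 0.69, limma, adjusted p = 0.152), which passed the threshold only without high-sugar control replicate 1 (adjusted p = 0.0446). On the control diet it was -0.00 (-0.34 to 0.33, adjusted p = 0.997).

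Socs36E, a target of Stat92E that is often used to read the activity of the pathway, had 150, 192 and 168 in high-sugar svp RNAi, against 158, 147 and 124 in high-sugar control. Larvae on the control diet had 151, 144 and 141 in svp RNAi, against 154, 133 and 125 in control. The groups overlapped on both diets. The log2 difference was 0.25 (95% confidence interval -0.06 to 0.55, limma, adjusted p = 0.29) on high sugar and 0.09 (-0.22 to 0.39, adjusted p = 0.788) on the control diet. These intervals end at 0.55 and 0.39, where those of TotC began at 0.54 and 0.79.

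Of the 6 genes followed, 3 were called higher and 0 lower on each diet, against 7.17% of all genes called higher and 6.22% called lower on high sugar, and 4.27% and 4.29% on the control diet. Their median log2 fold change was 0.90 on high sugar and 0.89 on the control diet, where the median of all genes was -0.009 and 0.006. The 3 called are all Turandot genes. Averaged over the 2 diets, a comparison added after the data were seen, the same 3 of 6 were called higher, against 9.74% of all genes: TotA by 3.63 ± 0.18, TotB by 3.08 ± 0.50 and TotC by 1.56 ± 0.30 (limma, adjusted p = 7.24e-09, 0.000416 and 0.0017). All 3 of these calls held in every alternative.

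**Figure D3:**
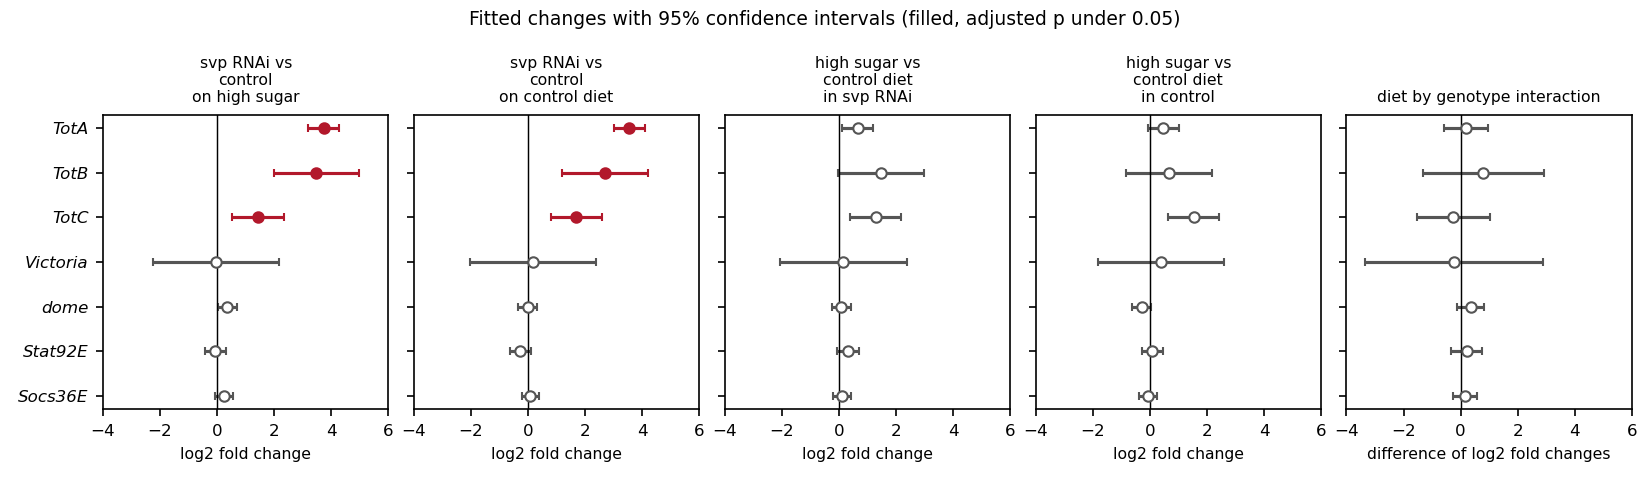
Fitted log2 fold changes of the 6 genes and Victoria with 95% confidence intervals, 1 panel for each comparison, the last being the diet effect in svp RNAi minus that in control. Filled red points passed an adjusted p of 0.05, which only TotA, TotB and TotC did, in the 2 comparisons of genotype.

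No Turandot gene was called between diets within a genotype. In the libraries labelled svp RNAi, log2 differences between high sugar and the control diet were 0.66 ± 0.25 for TotA, 1.47 ± 0.70 for TotB and 1.29 ± 0.42 for TotC (limma, adjusted p = 0.119, 0.204 and 0.0726). In control they were 0.47 ± 0.25, 0.69 ± 0.70 and 1.53 ± 0.42 (adjusted p = 0.411, 0.699 and 0.0806). Of the genes followed, 0 of 6 were called in either genotype, against 8.47% of all genes in svp RNAi and 1.90% in control. At an unadjusted p under 0.05 there were 2 of 6 in svp RNAi, TotA and TotC, and 1 of 6 in control, TotC, and limma voom called 2 and 0. Of all genes, 25.5% in svp RNAi and 15.5% in control had an unadjusted p under 0.05.

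In control the count rested on control-diet control replicate 2. Without that library TotC was called higher on high sugar, at 2.11 on the log2 scale (limma, adjusted p = 0.00629), and so was TotB, at 1.84 (adjusted p = 0.0401). In the libraries labelled svp RNAi, where that library enters only the estimate of the spread, both were called without it as well, with adjusted p of 0.0214 for TotC and 0.026 for TotB. As the library was singled out by its own TotB and TotC values, calls of these genes without it are no separate support.

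Averaged over the 2 genotypes, a comparison added in the same way, TotC rose with sugar. Its log2 fold change was 1.41 ± 0.30 (2.65-fold, limma, adjusted p = 0.00826), and the call held in all 21 alternatives, with adjusted p from 0.000533 to 0.024. TotC was the 1 gene of the 6 called there, against 5.99% of all genes called higher. TotA gave 0.57 ± 0.18 (adjusted p = 0.0588) and TotB 1.08 ± 0.50 (adjusted p = 0.176).

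Stat92E, dome and Socs36E gave no call between diets. Their log2 differences in svp RNAi were 0.31 ± 0.18, 0.08 ± 0.16 and 0.11 ± 0.14, and in control 0.09 ± 0.18, -0.29 ± 0.16 and -0.06 ± 0.14 (limma, adjusted p from 0.291 to 0.889).

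The interaction, which asks whether the effect of sugar differed between genotypes, was called for 0 of the 6 genes, against 0.192% of all genes. No gene of the 6 had an unadjusted p under 0.05 there, against 11.8% of all genes, and limma voom also called 0. It was 0.18 for TotA (95% confidence interval -0.59 to 0.95, limma, adjusted p = 0.877), 0.79 for TotB (-1.33 to 2.92, adjusted p = 0.791) and -0.26 for TotC (-1.52 to 1.01, adjusted p = 0.897). These intervals leave room for differences of more than 2-fold in TotB and TotC.

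Levels of different genes can be compared only per length, here as scaled reads per kb of merged exon in the current annotation. In high-sugar svp RNAi the order ran from TotA at 215710 ± 83413 through TotC at 1599 ± 532, TotB at 774 ± 204, Stat92E at 336 ± 37.3 and Socs36E at 46.4 ± 5.65 to dome at 39.3 ± 2.20 (SD, n = 3 for each). In high-sugar control TotA stood at 15871 ± 3786, TotC at 586 ± 172, Stat92E at 349 ± 8.73, TotB at 70.3 ± 28.8, Socs36E at 39.0 ± 4.81 and dome at 31.0 ± 6.23. TotB thus stood above Stat92E in the first of these groups and below it in the second. Socs36E and dome, the lowest pair, were not separated beyond their spread in either group.

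On the control diet the order in svp RNAi was TotA at 130800 ± 16377, TotC at 666 ± 266, TotB at 282 ± 105, Stat92E at 277 ± 71.7, Socs36E at 42.7 ± 1.38 and dome at 37.4 ± 5.99 scaled reads per kb (SD, n = 3). TotB and Stat92E did not differ beyond their spread there, nor did Socs36E and dome. In control-diet control TotA stood at 11281 ± 723, Stat92E at 330 ± 50.1, TotC at 234 ± 180, TotB at 80.6 ± 109, Socs36E at 40.6 ± 4.49 and dome at 37.4 ± 0.895, and neighbours in this order below TotA overlapped within their spread. TotA was the highest of the 6 in each group. Victoria had 753 ± 763 in high-sugar svp RNAi, 568 ± 266 in high-sugar control, 555 ± 416 in control-diet svp RNAi and 1277 ± 1979 in control-diet control.

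The rest of the JAK/STAT pathway was read from 4 lists of 22 genes, Stat92E, dome and Socs36E included, of which 19 have a tested row. On high sugar 1 of the 19 was called higher and 1 lower between genotypes, and on the control diet 0 and 1. These shares, 10.5% and 5.26%, lie beside 13.4% and 8.56% of all genes called in either direction. The median log2 fold change of the 19 was 0.04 on each diet. Between diets 1 of 19 was called higher in svp RNAi and 0 in control, where 2 had an unadjusted p under 0.05 and voom called 0. The shares of all genes called in either direction were 8.47% in svp RNAi and 1.90% in control, and in control 15.5% of all genes had an unadjusted p under 0.05.

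Among the ligands only os, which encodes Unpaired, has a tested row, and its symbol matches more than 1 current gene. It had 3 to 31 recovered reads in a library and no call, with log2 differences of -0.54 ± 0.42 on high sugar and 0.82 ± 0.42 on the control diet (limma, adjusted p = 0.451 and 0.274). At this depth moderate changes of os were not detectable. The kinase gene hop shares its name, but for case, with another row and was not tested.

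Among the receptors, et, which encodes a short Domeless-related receptor known to dampen signalling in blood cell precursors, rose on high sugar. It had 230, 195 and 219 in svp RNAi, against 178, 135 and 132 in control, without overlap, a log2 fold change of 0.54 ± 0.15 (limma, adjusted p = 0.0251). It had 206, 175 and 209 in control-diet svp RNAi, against 150, 185 and 169 in control-diet control (0.23 ± 0.15, adjusted p = 0.413). Its call ended without high-sugar control replicate 2 or 3, or high-sugar svp RNAi replicate 1 or 3 (adjusted p up to 0.112), and its exons overlap those of Zw on the other strand, whose reads cannot be told apart without strand.

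Of the 8 inhibitors, all with a row, 1 fell between genotypes on the control diet, against 4.29% of all genes called lower there. On high sugar 0 were called, against 13.4% of all genes. There 2 had an unadjusted p under 0.05, against 27.5% of all genes, and voom called 1. The one that fell was ken, a transcriptional repressor of a subset of STAT targets, with 19.7, 15.8 and 20.7 in control-diet svp RNAi against 40.8, 28.1 and 35.6 in control-diet control, a log2 fold change of -0.85 ± 0.23 (limma, adjusted p = 0.0325). That call ended when control-diet control replicate 1 or 3, or control-diet svp RNAi replicate 1 or 2, was left out (adjusted p up to 0.126). On high sugar ken had 25.4, 34.7 and 40.4 in svp RNAi and 33.1, 32.2 and 40.0 in control.

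Socs44A, a relative of Socs36E, rose with sugar in the libraries labelled svp RNAi. Its normalized abundance was 192, 226 and 253 in high-sugar svp RNAi and 162, 117 and 114 in control-diet svp RNAi, a log2 fold change of 0.67 ± 0.15 on scaled reads (limma, adjusted p = 0.0178, up to 0.0897 without control-diet svp RNAi replicate 2 or 3 or high-sugar svp RNAi replicate 3, which end the call). In control it had 152, 160 and 164 on high sugar and 102, 106 and 95.2 on the control diet (0.53 ± 0.15, adjusted p = 0.1). Averaged over genotypes the rise was 0.60 ± 0.11 (adjusted p = 0.00317), and averaged over diets it was higher in svp RNAi than in control by 0.42 ± 0.11 (adjusted p = 0.0138). No left-out library ended either of these calls. Exons of Socs44A overlap CG42516 and Pbp49 on the other strand.

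Of the 7 positive regulators, Cdk4, a cyclin-dependent kinase that with Cyclin D has been reported to stabilise Stat92E, fell between genotypes on high sugar. It had 41.5, 54.2 and 45.2 in svp RNAi, against 72.7, 86.9 and 90.4 in control, a log2 fold change of -0.82 ± 0.19 (limma, adjusted p = 0.0105, and 0.0518 without high-sugar control replicate 3). Its log2 difference on the control diet was 0.05 ± 0.19 (adjusted p = 0.916). The remaining regulators, BRWD3, Stam, Hrs, CycD, asrij and mask, and the inhibitors Socs16D, Ptp61F, Su(var)2-10, apt and lwr gave no call between genotypes on either diet, with log2 differences from -0.54 ± 0.17 for Socs16D on the control diet to 0.31 ± 0.16 for Stam on the same diet.

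**Figure D4:**
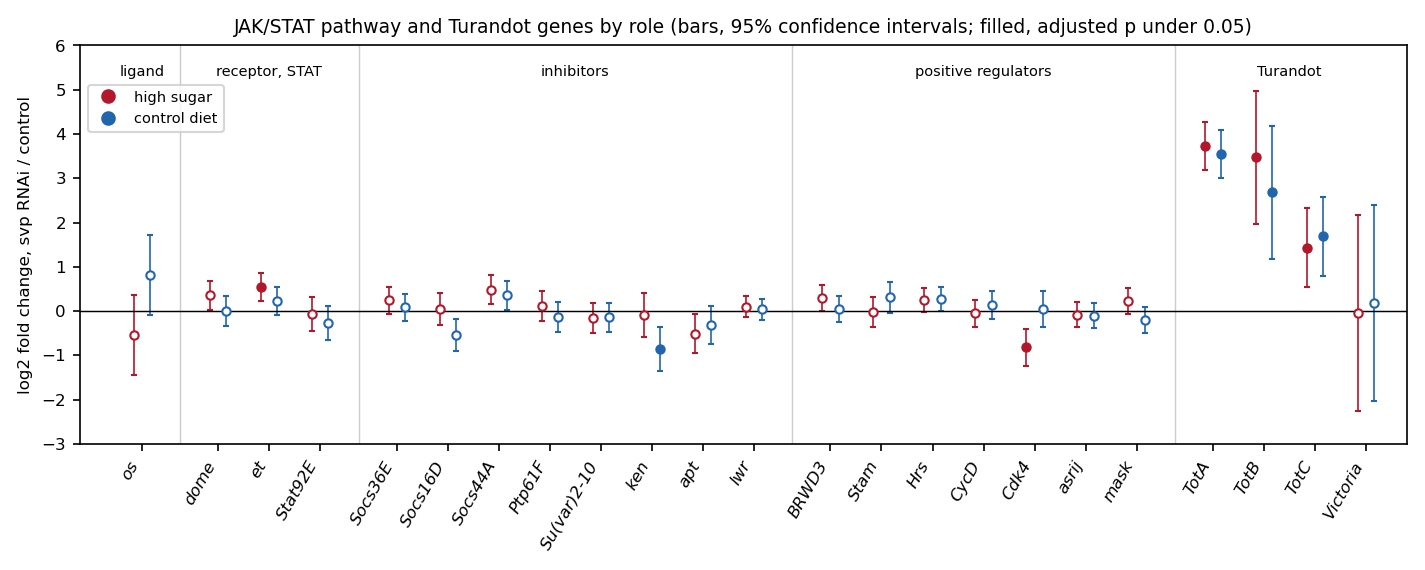
Log2 fold changes between svp RNAi and control of the 19 tested JAK/STAT genes and 4 Turandot genes, grouped by role, on high sugar (red) and the control diet (blue). Bars are 95% confidence intervals and filled points passed an adjusted p of 0.05; the pathway genes lie between -0.85 and 0.82, and TotA, TotB and TotC lie between 1.43 and 3.73.

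Other immune genes reported to respond to STAT moved in both directions. Of 5 such genes 4 have a row, and on high sugar 1 rose and 1 fell between genotypes, against 7.17% and 6.22% of all genes. On the control diet 0 were called, against 8.56% of all genes. There 1 had an unadjusted p under 0.05, against 22.1% of all genes, and voom called 0. TepI, now Tep1, which encodes a thioester protein related to complement, had 258, 158 and 219 in high-sugar svp RNAi against 52.7, 107 and 120 in high-sugar control, a log2 fold change of 1.23 ± 0.33 (limma, adjusted p = 0.0218). Its call ended without high-sugar control replicate 1 or high-sugar svp RNAi replicate 1 or 3 (adjusted p up to 0.0862). The virus-induced gene vir-1 had 946, 962 and 871 in high-sugar svp RNAi against 1814, 2037 and 2414 in high-sugar control, a log2 fold change of -1.16 ± 0.15 (adjusted p = 0.00011) that held with each library left out.

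The other pathways known to act on Turandot genes were read from their own lists. Of 13 stress MAPK genes, 2 rose between genotypes on high sugar and 1 on the control diet. This is 15.4% and 7.69% of the list, beside 7.17% and 4.27% of all genes called higher. Averaged over diets 4 of 13 rose, against 9.74% of all genes called higher: Mpk2, Jra and Mekk1, whose calls no left-out library ended, and puc, whose call ended in 9 of 12 cases. The stress kinase gene Mekk1 rose by 0.57 ± 0.12 on high sugar, to 552, 573 and 571 in svp RNAi against 415, 355 and 374 in control (limma, adjusted p = 0.00495). The p38 kinase Mpk2, now p38a, rose by 0.53 ± 0.16 there (adjusted p = 0.0378), a call that left-out libraries ended in 4 of 12 cases. With control food it was Jra, the fly Jun, at 0.52 ± 0.15 (adjusted p = 0.0416), and left-out libraries ended this call in 8 of 12 cases.

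Between diets, p38c, a p38 kinase gene with roles in gut immunity, had 189, 142 and 191 in high-sugar svp RNAi against 69.1, 68.1 and 67.7 in control-diet svp RNAi, and 155, 130 and 204 in high-sugar control against 56.6, 51.4 and 56.3 in control-diet control. It rose in both genotypes, by 1.21 ± 0.18 in svp RNAi and 1.41 ± 0.18 in control on the log2 scale of scaled reads (limma, adjusted p = 0.00104 and 0.000857). In svp RNAi the JNK kinase hep and Mekk1 were called higher with sugar as well (0.59 ± 0.16 and 0.52 ± 0.12, adjusted p = 0.0333 and 0.0174), and left-out libraries ended these calls in 5 and 2 of 12 cases. This makes 3 of the 13 stress MAPK genes in svp RNAi and 1 in control. Of all genes 8.47% and 1.90% were called in either direction.

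The Imd pathway, from receptors to Relish, has 11 genes with a row, and 0 were called between genotypes on either diet or between diets in either genotype by limma. Of all genes, 13.4% on high sugar and 8.56% on the control diet were called between genotypes. Between diets 8.47% were called in svp RNAi and 1.90% in control. At an unadjusted p under 0.05 there were 3 between genotypes on high sugar and 1 on the control diet, and 4 between diets in each genotype, and voom called 1 gene between diets in svp RNAi and 0 in the other comparisons. Over all genes the unadjusted shares were 27.5% and 22.1% between genotypes on high sugar and the control diet. Between diets they were 25.5% in svp RNAi and 15.5% in control. Averaged over diets 1 of 11, Rel, which encodes Relish, rose between genotypes, by 0.37 ± 0.09 (adjusted p = 0.01), with no left-out library ending the call, against 9.74% of all genes called higher. Averaged over genotypes 1 of 11, key, which encodes an IKK subunit, rose with sugar by 0.31 ± 0.09 (adjusted p = 0.0406), against 5.99% of all genes, and left-out libraries ended this call in 9 of 12 cases. More were called among the genes listed as its targets. Of 13 such antimicrobial peptide genes 6 have a row, and 5 rose between genotypes on each diet. This lies beside 7.17% of all genes called higher on high sugar and 4.27% on the control diet. The 1 not called on either diet was DptB. Whether the peptide genes rose through the Imd pathway was not tested. Mtk, which encodes metchnikowin, had 2711, 1997 and 2741 in high-sugar svp RNAi against 68.9, 88.7 and 345 in high-sugar control (19.0-fold, adjusted p = 5.08e-05) and rose 32.6-fold on the control diet (adjusted p = 1.91e-05). Dro, which encodes drosocin, rose 19.6-fold on high sugar and 22.6-fold on the control diet (adjusted p = 0.000168 and 0.000138). AttB rose 6.96-fold on high sugar (adjusted p = 0.00037) and AttA 21.1-fold on the control diet (adjusted p = 9.67e-05). Between diets AttA was 4.23-fold lower on high sugar in svp RNAi (adjusted p = 0.0331), a call that left-out libraries ended in 5 of 12 cases, whereas TotA had a log2 difference of 0.66 there.

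Heat shock genes, which respond to heat and protein damage as the Turandot genes do to heat, rose in part. Of 15 listed 9 have a row, and 2 rose between genotypes on high sugar and 3 on the control diet, against 7.17% and 4.27% of all genes. Hsp23 had 18956, 29221 and 22559 in high-sugar svp RNAi against 5263, 13124 and 6715 in high-sugar control (log2 1.58 ± 0.28, limma, adjusted p = 0.00146), and rose by 1.35 ± 0.28 on the control diet (adjusted p = 0.0062). Hsp70Bb rose by 0.90 ± 0.16 on high sugar and by 1.16 ± 0.16 on the control diet (adjusted p = 0.0013 and 0.000198), and its near-identical copies can share its reads. Hsp67Bc rose by 0.75 ± 0.22 on the control diet (adjusted p = 0.0473), which left-out libraries ended in 8 of 12 cases. It was lower with sugar in svp RNAi (-0.81 ± 0.22, adjusted p = 0.0359), which they ended in 4. Averaged over genotypes, 3 of the 9 were called lower on high sugar and 0 higher, beside 1035 of 9367 genes called in either direction. The 3 were Hsp26 (-0.84 ± 0.23), Hsp67Bc (-0.70 ± 0.15) and Hsp27 (-0.58 ± 0.15), with adjusted p = 0.0294, 0.011 and 0.0248 (limma). Left-out libraries ended these calls in 5, 0 and 6 of 12 cases.

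Markers of other cell types moved with genotype too. Hemocytes, the blood cells that release Unpaired 3, had 11 of 11 markers in the table, whose summed scaled reads ran from 5266 to 6088 in high-sugar svp RNAi and from 8479 to 10627 in high-sugar control, and from 7546 to 8242 in control-diet svp RNAi and from 11979 to 14785 in control-diet control. Cg25C, vkg and srp are among the markers summed. Whether fat body cells express some of them, and what part of the sums came from hemocytes, was not tested. Of these 11, 2 were called higher and 4 lower between genotypes on high sugar, and 1 higher and 3 lower on the control diet. Of all genes 7.17% were called higher and 6.22% lower on high sugar, and 4.27% and 4.29% on the control diet. Between diets 6 of 11 were called lower on high sugar in svp RNAi and 4 in control, against 8.47% and 1.90% of all genes called in either direction.

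Muscle had 13 of 13 markers in the table, with sums from 13277 to 16107 in high-sugar svp RNAi, from 22012 to 32408 in high-sugar control, from 11458 to 17526 in control-diet svp RNAi and from 27386 to 39188 in control-diet control. Of them 7 were called lower between genotypes on high sugar and 12 on the control diet, against 6.22% and 4.29% of all genes. Germ line and gonad genes, 4 with a row of 9 listed, had sums from 39 to 68 in high-sugar svp RNAi and from 384 to 854 in high-sugar control, and from 53 to 75 in control-diet svp RNAi and from 312 to 517 in control-diet control, with no overlap between genotypes. Of these 4, 1 was called lower on each diet, against the same 6.22% and 4.29%, and the defining genes vas, bam, osk and zpg have no row.

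Neuron markers, 7 with a row of 8 listed, had sums that did not overlap between genotypes either and were higher in svp RNAi, from 3559 to 4612 in high-sugar svp RNAi and from 2156 to 2444 in high-sugar control, and from 3850 to 4901 in control-diet svp RNAi and from 2168 to 2685 in control-diet control. Of the 7 neuron markers 1 was called higher and 3 lower on high sugar, and 1 and 1 on the control diet, and averaged over diets 1 was called higher and 6 lower. On each diet only 1 of the 7 lay above 0. Their median log2 fold change was -0.92 on high sugar and -0.65 on the control diet. The higher sums thus went against most of the list. Salivary gland had 1 and 2 of 7 markers called lower, and midgut 0 of 7 on either diet, with 1 and 0 at an unadjusted p under 0.05 and 0 by voom. Of all genes, 27.5% on high sugar and 22.1% on the control diet had an unadjusted p under 0.05. Of the 10 fat body markers 4 were called lower on high sugar and 5 on the control diet. The shares of all genes beside these marker counts were 7.17% called higher and 6.22% lower on high sugar. They were 4.27% and 4.29% on the control diet, and 19.1% called in either direction averaged over diets. The part of other cells in the differences of the Turandot genes was not tested.

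The genes whose profile over the 12 libraries was most like that of TotA were CG3940 (now CAH7), tomosyn, CG8358 (now Nepl12), Pcp and CG30088. Likeness was the root mean square difference between log2 scaled reads after each profile was centred on its own mean, and it was 0.47, 0.50, 0.56, 0.60 and 0.61 for these genes, where the standard deviation of the TotA profile itself was 1.94. TotB and TotC came 35th and 78th among 9366 genes, at 0.98 and 1.22. As the choice of like genes brings with it, all 5 were called higher in svp RNAi on both diets, with log2 fold changes from 2.39 to 3.97. For Stat92E, whose profile had a standard deviation of 0.26, the most like genes were ari-1, wdb, abd-A, CG7139 and Gprk2, at 0.13 to 0.14, and none of these was called in any of the 5 comparisons.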

How the data were processed

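Per the labels' protocols, dissected fat bodies were sheared and centrifuged, RNA was extracted with Trizol, ribosomal RNA was removed with RiboZero, and sequencing was on an Illumina HiSeq. The submitters' processing notes name edgeR, Cufflinks 1.1.0, TopHat 1.3.2 and Bowtie 0.12.7, and build dm3. How reads were counted, with which annotation and strand setting, is not given in the sources used here. What the authors deposited is 1 signal value a gene and library, headed normalized abundance, in read-like units that the values show to have been adjusted separately for each diet.

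Of 9527 rows, 156 whose names are not unique without case and 4 with bare numbers as names were left out, and no other sample's columns were present. The adjustment was inverted to whole reads: every low value came within 0.1 of a whole read, and in genes not used to find the library factors the lowest share was 99.87%, against 13.4% to 43.4% as deposited. Comparisons of genotype and the interaction used deposited values. Comparisons of diet used the recovered reads after joint median-of-ratios scaling, since the deposited values differed between diets by a median of 0.103 on the log2 scale, and the scaled reads by -0.009. limma 3.58.1 in R 4.3.3 was fitted to log2(value + 1) with an intensity trend over 12 libraries and 4 group means, with Benjamini-Hochberg adjustment over 9367 genes and a threshold of 0.05 for calls. Fold changes on that scale are too small for low genes. The scripts were checked on simulated data. edgeR was not run here, and limma voom on recovered reads took the place of a count test. The depth limits low genes, such as os and TotB in control, more than abundant ones.

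The genes followed, the 17 other gene lists (10 of pathways, 7 of markers) and the tests were chosen with earlier results of these data known. Named are the genes followed, every tested Turandot and JAK/STAT gene, up to 3 called genes with the largest change per list and comparison, svp, and the 5 genes most like TotA and Stat92E. The annotation at hand is BDGP6, not dm3, so it gave names, lengths, strands and neighbours and no coordinates. Alternatives tried were pseudocounts of 0.5 and 5, no filter, a mean of at least 20, quantile normalization, the replicate number as a block, a fit of the compared groups alone, voom, other scalings and each library left out.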

Additional observations from a re-analysis of the deposited data

How the results depend on the processing

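Over 882 refits of the 6 genes (7 comparisons, 2 of them added after the data were seen), 831 kept direction and side of the threshold, 13 lost a call, 19 gained one and 19 changed sign. The cause was not tested.

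With each library left out, the genes called ran from 785 to 1355 between genotypes on high sugar, from 273 to 879 between diets in svp RNAi, from 103 to 236 between diets in control and from 6 to 30 for the interaction, and a pseudocount of 5 gave 28 there. Values as deposited gave 1283 genes between diets in svp RNAi, 307 in control and 1701 averaged over genotypes.

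Of the 6 genes, left-out libraries gave 1 to 3 calls between genotypes on the control diet, 0 to 2 between diets in svp RNAi, 0 to 2 in control and 1 to 2 averaged over genotypes. Between diets in svp RNAi, quantile normalization gave 1, the compared groups alone 2, voom 2 and values as deposited 1. In control, values as deposited gave 1. Averaged over genotypes, a mean of at least 20, quantile normalization, voom and values as deposited each gave 2.

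Signs changed with values as deposited for Socs36E between diets in control (0.059) and dome averaged over genotypes (0.011), and with quantile normalization for Socs36E averaged over genotypes (-0.008). With a library left out, log2 differences between diets in control ran from -0.14 to 0.04 for Socs36E, from -0.10 to 1.84 for TotB and from -0.015 to 0.203 for Stat92E. In svp RNAi they ran from -0.042 to 0.191 for dome, and averaged over genotypes from -0.017 to 0.076 for Socs36E. Between genotypes they ran from -0.11 to 0.13 for dome on the control diet and from -0.14 to 0.02 for Stat92E on high sugar. For the interaction they ran from -0.028 to 0.358 for Stat92E, from -0.12 to 0.36 for TotA, from -0.33 to 1.66 for TotB and from -0.83 to 0.15 for TotC.

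Libraries that share a replicate number did not deviate together (correlations from -0.24 to 0.19), so the numbers were not taken as pairs. With the replicate number as a block, 3 of the 6 genes were called between genotypes on each diet, 0 between diets within either genotype, 1 between diets averaged over genotypes and 0 for the interaction, as without the block.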
